A study of Mus musculus with 6 samples.

Results

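Wnt signalling genes were followed in endothelial cells of the mouse embryo at day 12.5 of development. The set held 55 genes, listed by symbol for their place in the pathway and proposed with earlier results of these data known, and all 55 were among the 23420 genes of the deposited count table. They comprised 16 Wnt ligands, 10 Frizzled receptors, 4 co-receptors and receptor partners, 6 genes of the R-spondin axis, 8 secreted inhibitors, 5 nuclear effectors and 6 genes of the destruction complex or of negative feedback.

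A pair of fractions of PECAM1+ CD45- CD11b- KIT- cells sorted from whole embryos was compared: tdTom+ cells, which fluoresced from the recombined tdTomato reporter, and tdTom- cells, which did not. Every embryo was Csf1r-iCre;RosatdTomato, so both fractions carried the Cre and the reporter alleles and were told apart by reporter fluorescence. The Csf1r promoter that drives this Cre is active in the myeloid lineage and its progenitors, and the reporter marks cells with present or past Cre activity. Each fraction had 3 RNA-seq libraries, made from the cells of 3 embryos, and the labels do not say that a library number names an embryo, so p-values measure the spread between these libraries. The samples were bulk, and fewer cells of a type and less RNA per cell cannot be told apart in any value below.

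Wnts are lipid-modified secreted glycoproteins that bind Frizzled receptors together with LRP5 or LRP6. This binding stops the destruction complex from degrading beta-catenin, which then works with TCF and LEF factors to switch on target genes, among them inhibitors that dampen the signal. In the embryo, Wnt7a and Wnt7b from the neural tube act through GPR124 and RECK on the endothelium that enters the brain. In other settings, not tied to this stage, FZD4 with LRP5 and TSPAN12 carries the norrin signal in retinal vessels. Endothelial Wnt2 and Wnt9b likewise act on hepatocytes in the liver.

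Total counts were between 8919887 and 11767956 per library, so that 3 counts corresponded to 0.254 to 0.335 CPM (counts scaled to the library total), a floor that covers counting error only. Across the tested genes, the tdTom+ libraries correlated with one another at r of 0.924 to 0.947 and the tdTom- libraries at 0.972 to 0.978, against 0.928 to 0.958 between fractions, so tdTom+ libraries were the more varied. Replicate 1 of tdTom+ correlated at 0.954, 0.958 and 0.948 with tdTom- replicates 1, 2 and 3. These values were above its 0.947 and 0.937 with tdTom+ replicates 2 and 3. Each tdTom+ library also had fewer genes with a count, 14432 to 15300, against 15850 to 16109 in tdTom- libraries, and the part of this in the results of low-count genes was not tested. The sum over 12 core endothelial markers was 8648 to 9188 CPM in tdTom+ cells and 8741 to 8856 CPM in tdTom- cells, and 0 of the 12 passed the edgeR test at an adjusted p of 0.05, with Pecam1 at 881, 842 and 768 CPM in tdTom+ libraries against 940, 889 and 959 CPM in tdTom- libraries. Other endothelial and non-endothelial markers did separate the fractions (sums below are over all listed genes). Over all 13142 tested genes, 0.769% rose and 0.814% fell in tdTom+ cells by the same edgeR test. Of 12 liver sinusoidal markers 10 rose, led by Lyve1, Oit3, Ehd3 and Gpr182, and the list summed to 2647 to 3042 CPM in tdTom+ cells and 1089 to 1241 CPM in tdTom- cells. Of 11 megakaryocyte and platelet markers 7 rose, led by Itga2b, Tubb1, Plek and Itgb3, with sums of 288 to 522 CPM in tdTom+ cells and 37.6 to 49.6 CPM in tdTom- cells. Of 6 germ cell markers 5 fell, with sums of 1.68 to 3.02 CPM in tdTom+ cells and 69.4 to 117 CPM in tdTom- cells, and Dazl, Dppa3, Pou5f1 and Mael were at 0 in all tdTom+ libraries. Of 15 brain endothelial markers 6 fell, of 13 endocardial markers Cdh11, Tmem108 and Gata5 fell, and of 9 erythroid markers Gata1 and Klf1 rose. The erythroid list summed to 257 to 342 CPM in tdTom+ cells and 218 to 317 CPM in tdTom- cells, overlapping. By the same test 0 of the macrophage, neural, epithelial and hepatoblast markers passed. Of the 8, 9, 8 and 8 tested, 2, 3, 1 and 2 were at an unadjusted p under 0.05, against 10.7% of all tested genes. All 8 tested hepatoblast markers had negative log2 fold changes (median -1.47), and the list summed to 161 to 174 CPM in tdTom+ cells and 209 to 456 CPM in tdTom- cells. Neural markers summed to 262 to 286 CPM in tdTom+ cells and 298 to 325 CPM in tdTom- cells, and macrophage markers to 33.4 to 46.1 CPM in tdTom+ cells and 22.8 to 29.5 CPM in tdTom- cells, neither overlapping. Epithelial markers summed to 81.8, 26.6 and 2.15 CPM in tdTom+ libraries 1 to 3. In tdTom- libraries 1 to 3 their sum was 44.4, 60.2 and 36.4 CPM, which overlapped. The part of all these markers in the Wnt gene results was not tested.

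Wnt pathway RNAs were lower in tdTom+ cells for 3 ligands, for 2 Frizzleds, for 2 secreted inhibitors and for 2 genes downstream of the signal, whereas the log2 fold changes of Lrp5, Lrp6, Tspan12 and Ctnnb1 were smaller than their standard errors. Of the 55 genes, 44 had enough counts to be tested; 9 of these fell and 0 rose in tdTom+ cells by edgeR's quasi-likelihood test at a Benjamini-Hochberg adjusted p of 0.05. Over all 13142 tested genes 0.814% fell and 0.769% rose, 1.58% in all. At an unadjusted p under 0.05, 19 of the 44 were lower, against 5.94% of all tested genes, and 1 was higher, against 4.76%; 10.7% of all genes were past it in either direction. DESeq2 called 14 lower, against 1.92% of the genes it tested, limma-voom called 6 lower, against 0.601%, and both called 0 higher. The genes that fell, with their places on GRCm38, were Wnt4 (chr4:137277489-137299726), Wnt9b (chr11:103727364-103749821), Wnt11 (chr7:98835112-98855195), Fzd1 (chr5:4753839-4758035), Fzd6 (chr15:39006034-39038188), Sfrp2 (chr3:83766321-83774316), Dkk3 (chr7:112116017-112159057), Tcf7 (chr11:52252371-52283014) and Apcdd1 (chr18:62922231-62961179). The log2 fold change of tdTom+ over tdTom- cells was negative for 36 of the 44 genes, with a median of -0.54, beside a median of -0.00 over all tested genes. In 18 of the 44 every tdTom+ library lay below every tdTom- library, against 9.35% of all tested genes, and in 1, Wnt7b, every tdTom+ library lay above, against 7.88%. The count of 9 depended on single libraries: it was 2, 5 and 7 without tdTom+ replicates 1, 2 and 3, and 0, 2 and 0 without tdTom- replicates 1, 2 and 3, with no change of sign in any called gene.

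**Figure D1:**
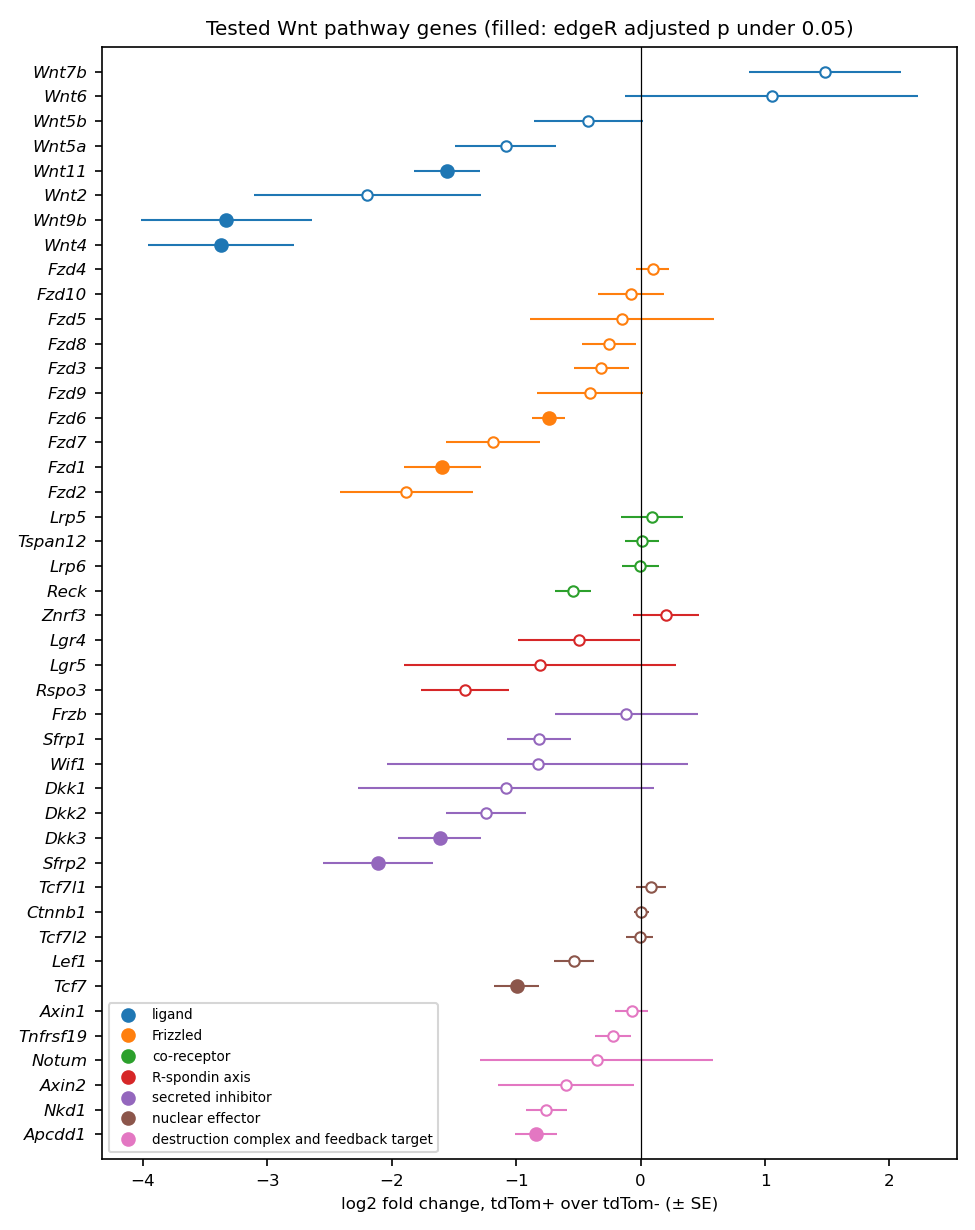
Log2 fold change of tdTom+ over tdTom- cells for the 44 tested Wnt pathway genes, grouped by role, with bars of 1 standard error from edgeR; filled points passed an adjusted p of 0.05. The 9 filled points all lie left of 0, and 36 of the 44 points are negative.

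Per length of exon, beta-catenin was far above every other member. Ctnnb1, which encodes it, had 263 CPM per kb in tdTom+ cells and 262 CPM per kb in tdTom- cells. Tspan12 followed at 26.6 ± 3.78 CPM per kb in tdTom+ cells and 26.3 ± 2.99 CPM per kb in tdTom- cells (SD, n = 3 each), a spread that overlaps that of Tcf7l1, at 22.8 ± 1.74 CPM per kb in tdTom+ cells and 21.5 ± 2.39 CPM per kb in tdTom- cells. Among the Frizzleds, Fzd4 and Fzd6 stood highest. Fzd4 had 13.6 ± 1.29 CPM per kb in tdTom+ cells and 12.7 ± 1.69 CPM per kb in tdTom- cells, and Fzd6 had 11.4 ± 1.39 CPM per kb in tdTom+ cells and 18.9 ± 1.64 CPM per kb in tdTom- cells (SD, n = 3 each). The SDs of Fzd4 and Fzd6 overlapped in tdTom+ cells, and in tdTom- cells Fzd6 was above Fzd4 by more than both SDs. The ligands were low: Wnt11, Wnt4 and Wnt9b had 1.95, 0.452 and 0.311 CPM per kb in tdTom+ cells and 5.74, 4.73 and 3.16 CPM per kb in tdTom- cells.

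**Figure D2:**
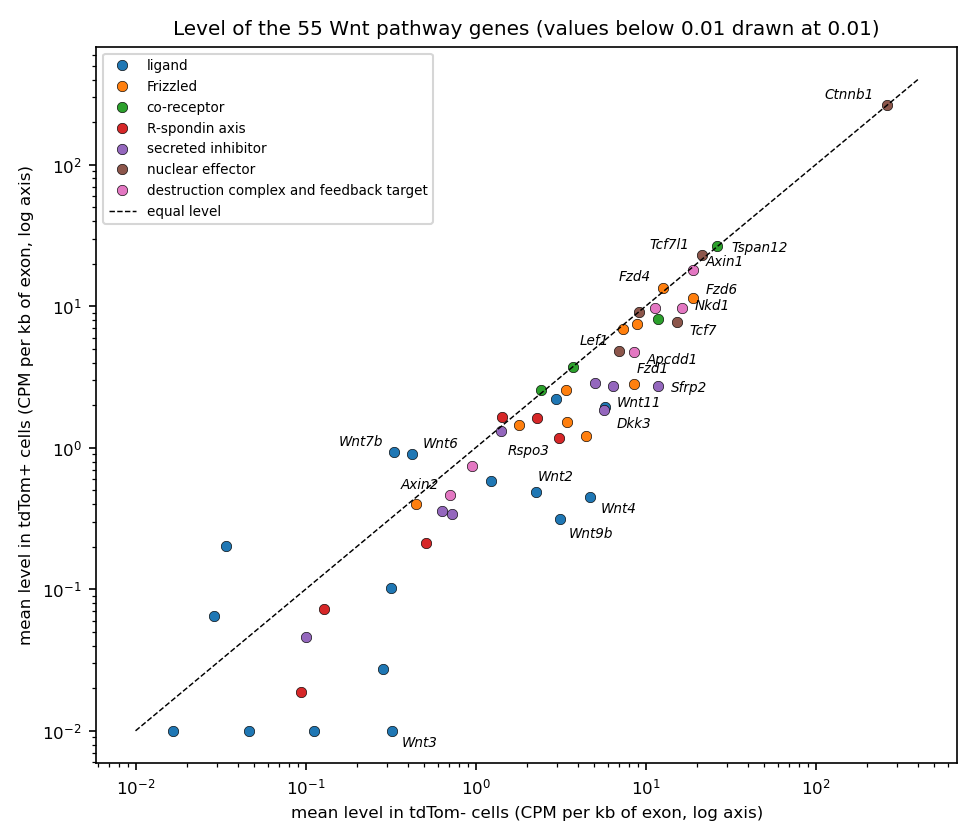
Mean CPM per kb of exon in tdTom+ cells (vertical axis) and tdTom- cells (horizontal axis) for the 55 Wnt pathway genes, on log axes, over 3 libraries a fraction, with values under 0.01 drawn at 0.01; the dashed line marks equal levels. Ctnnb1 lies on the line at the top, and Wnt4 and Wnt9b lie far to the tdTom- side of it, at 0.452 and 0.311 CPM per kb in tdTom+ cells and 4.73 and 3.16 CPM per kb in tdTom- cells.

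The ligand genes whose RNA fell are shown first by the sequence just upstream of their starts, from RefSeq promoter windows on GRCm38.p6, since this is where a TCF or LEF motif could be looked for. The bases before the annotated start are given 5′ to 3′ on the gene's strand, and capitals mark the single match to the searched motifs. For Wnt4 only the 104 bases before the GENCODE vM21 start are printed, while the full 250 before the RefSeq start were searched. Wnt11 had another RefSeq window, not printed, which held no motif.
Wnt4, chr4:137277385-137277488, plus strand: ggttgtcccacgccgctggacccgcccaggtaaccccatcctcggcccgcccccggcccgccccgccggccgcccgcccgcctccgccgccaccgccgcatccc
Wnt9b, chr11:103749822-103750071, minus strand: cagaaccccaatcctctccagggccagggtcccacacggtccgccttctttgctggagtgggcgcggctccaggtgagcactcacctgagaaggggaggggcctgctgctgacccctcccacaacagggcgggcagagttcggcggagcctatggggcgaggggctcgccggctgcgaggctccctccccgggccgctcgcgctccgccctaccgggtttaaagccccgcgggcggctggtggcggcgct
Wnt11, chr7:98834862-98835111, plus strand: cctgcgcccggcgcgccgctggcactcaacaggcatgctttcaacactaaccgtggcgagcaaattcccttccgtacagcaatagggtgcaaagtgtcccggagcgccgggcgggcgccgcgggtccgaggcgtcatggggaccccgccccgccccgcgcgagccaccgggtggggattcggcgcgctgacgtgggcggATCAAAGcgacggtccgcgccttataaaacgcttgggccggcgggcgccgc
The first motif searched was CTTTGAA, the next was CTTTGAT, the other two were CTTTGTA as well as CTTTGTT, all on both strands, in the 250 bases before each start, and ATCAAAG in the Wnt11 window is CTTTGAT read on the other strand. Windows were found for 38 of the 55 genes, and 8 of their 49 windows (16.3%) held a motif, against 14.8% of all 32851 windows. The genes with a match were Fzd7, Lef1, Reck, Wnt5b, Wnt11, Tnfrsf19, Dkk1 and Tcf7l2, of which Wnt11 was among those that fell; Fzd6, Dkk3 and Apcdd1, which also fell, had no window here. These matches describe letters in a window and not binding.

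Among the ligands, Wnt4, Wnt9b and Wnt11 fell in tdTom+ cells, 3 of the 8 that could be tested, and 0 rose. Their combined level, summed over all 16 ligands, was 39.1, 29.4 and 23.5 CPM in tdTom+ libraries 1 to 3 and 109, 78.6 and 72.7 CPM in tdTom- libraries 1 to 3. Wnt4, a ligand of kidney and gonad development, had 4.12, 0.914 and 0.654 CPM in tdTom+ libraries against 26.5, 18.5 and 14.4 CPM in tdTom- libraries. Every tdTom+ library was below every tdTom- library, and the level was 10.3-fold lower (log2 fold change -3.37 ± 0.59 SE, edgeR adjusted p = 0.0192). Wnt9b, which acts upstream of Wnt4 in the kidney and is made by liver endothelium, had 2.45, 0.274 and 1.49 CPM in tdTom+ libraries against 25.8, 9.81 and 7.27 CPM in tdTom- libraries, without overlap (log2 fold change -3.33 ± 0.69 SE, edgeR adjusted p = 0.0403). Wnt11, a ligand linked to beta-catenin-independent signalling, had 9.37, 7.41 and 7.47 CPM in tdTom+ libraries against 31.1, 20.6 and 19.6 CPM in tdTom- libraries. It was 2.94-fold lower, and the fractions did not overlap (log2 fold change -1.55 ± 0.26 SE, edgeR adjusted p = 0.0170).

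The calls of the 3 ligands, and the folds of Wnt4 and Wnt9b, changed when 1 library was left out. Without tdTom+ replicate 1, Wnt4 was 24.9-fold and Wnt9b 16.0-fold lower, and without tdTom- replicate 1 Wnt9b was 6.02-fold lower, against 10.05-fold with all libraries. Leaving out tdTom- replicate 1, 2 or 3 gave edgeR adjusted p-values of 0.110, 0.0705 and 0.0766 for Wnt4 and of 0.123, 0.0586 and 0.0612 for Wnt11, and Wnt9b did not pass without any one of the 6 libraries, at 0.0598 to 0.287, nor with limma-voom, at 0.170. Urogenital markers, summed over the list, were at 18.7 to 32.2 CPM in tdTom+ cells and 25.6 to 34.4 CPM in tdTom- cells, overlapping. Of the 4 tested, 0 passed edgeR. Endocardial markers summed to 2602 to 2788 CPM in tdTom+ cells and 2853 to 3053 CPM in tdTom- cells, without overlap. Of the 13 tested, 12 had negative log2 fold changes and 3 fell by edgeR, against 0.814% of all tested genes. The part of either list in the Wnt4 and Wnt9b results was not tested.

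The other tested ligands did not pass. Wnt2, a ligand made by liver endothelium, had 1.75, 1.55 and 0 CPM in tdTom+ libraries against 4.94, 5.33 and 5.03 CPM in tdTom- libraries (log2 fold change -2.19 ± 0.91 SE, edgeR adjusted p = 0.403). Wnt5a, a ligand of beta-catenin-independent signalling, had 4.47, 2.47 and 6.72 CPM in tdTom+ libraries against 9.69, 9.13 and 10.2 CPM in tdTom- libraries (edgeR adjusted p = 0.321). Both were below all tdTom- libraries in every tdTom+ library. Wnt7b, a neural ligand for brain vessels, ran the other way, with 6.57, 4.94 and 2.15 CPM in tdTom+ libraries against 1.36, 1.94 and 1.56 CPM in tdTom- libraries (log2 fold change 1.48 ± 0.61 SE, edgeR adjusted p = 0.394). Wnt5b and Wnt6 overlapped between fractions, with edgeR adjusted p-values of 0.825 and 0.845.

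A further 8 ligands were too low to test, and no library held more than 17 counts of any untested gene of the set. Wnt3 had 0, 0 and 0 counts in tdTom+ libraries and 1, 14 and 15 counts in tdTom- libraries. The tdTom- mean was 3.62-fold above the tdTom+ floor of 3 counts per library. That mean rested on tdTom- replicates 2 and 3, since tdTom- replicate 1, at 1 count, was itself under 3 counts. Wnt3a had 0, 0 and 0 counts in tdTom+ libraries and 4, 0 and 0 counts in tdTom- libraries, so only 1 library showed it. Wnt9a had 1, 0 and 2 counts in tdTom+ libraries against 14, 15 and 2 in tdTom- libraries, and Wnt7a had 10, 0 and 1 counts in tdTom+ libraries against 14, 17 and 2 counts in tdTom- libraries. Wnt7a overlapped between fractions, and Wnt9a met at 2 counts. Wnt10b, like the inhibitor Sfrp5, stayed at or under 3 counts in every library, and Wnt2b, Wnt10a and Wnt16 reached at most 5, 12 and 12 counts in any library.

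Of the 10 Frizzleds, all tested, Fzd1 and Fzd6 fell in tdTom+ cells and 0 rose, while Fzd4 differed by less than its spread. The class summed to 270, 249 and 272 CPM in tdTom+ libraries and 382, 332 and 352 CPM in tdTom- libraries. Fzd1 had 14.4, 14.0 and 7.38 CPM in tdTom+ libraries against 49.1, 24.9 and 34.0 CPM in tdTom- libraries. It was 3.02-fold lower without overlap (log2 fold change -1.59 ± 0.31 SE, edgeR adjusted p = 0.0299). Fzd6, linked to planar cell polarity and hair patterning, had 56.5, 60.4 and 47.3 CPM in tdTom+ libraries against 89.4, 99.9 and 84.5 CPM in tdTom- libraries. It was 1.67-fold lower, again without overlap (log2 fold change -0.74 ± 0.13 SE, edgeR adjusted p = 0.0213). Fzd4, the norrin receptor, had 82.2, 91.8 and 99.5 CPM in tdTom+ libraries against 72.3, 93.6 and 89.6 CPM in tdTom- libraries, a difference of 0.10 ± 0.13 SE in log2 (edgeR adjusted p = 0.881).

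Fzd2 and Fzd7, near relatives of Fzd1, were lower without passing edgeR. Fzd2 had 7.97, 1.92 and 3.36 CPM in tdTom+ libraries against 23.7, 7.69 and 17.7 CPM in tdTom- libraries, and tdTom+ replicate 1 lay above tdTom- replicate 2 (log2 fold change -1.88 ± 0.54 SE, edgeR adjusted p = 0.149, DESeq2 adjusted p = 0.0132). Fzd7 had 9.90, 5.03 and 5.79 CPM in tdTom+ libraries against 23.4, 10.8 and 13.0 CPM in tdTom- libraries, without overlap (edgeR adjusted p = 0.212). The log2 fold changes of Fzd3, Fzd5, Fzd8, Fzd9 and Fzd10 were -0.31, -0.15, -0.25, -0.41 and -0.08, and none passed. The Fzd1 and Fzd6 calls were lost without tdTom- replicate 1, at edgeR adjusted p-values of 0.173 and 0.109, without tdTom- replicate 3, at 0.123 and 0.0766, and without tdTom+ replicate 1, at 0.0703 and 0.0649; Fzd1 was also lost without tdTom+ replicate 2, at 0.0563, and with limma-voom, at 0.0539, and Fzd6 without tdTom- replicate 2, at 0.112.

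None of the 4 co-receptors and receptor partners passed edgeR, by which 1 had an unadjusted p under 0.05; DESeq2 called 1, Reck. Lrp6, the main Wnt co-receptor, had 56.6, 41.8 and 55.1 CPM in tdTom+ libraries against 49.1, 53.4 and 51.2 CPM in tdTom- libraries. It averaged 51.2 CPM in tdTom+ cells and 51.2 CPM in tdTom- cells, with a log2 fold change of -0.00 ± 0.15 SE. Lrp5 had a log2 fold change of 0.09 ± 0.25 SE. Tspan12, which strengthens norrin signalling through FZD4, had 92.7, 97.7 and 73.9 CPM in tdTom+ libraries against 88.7, 96.2 and 76.6 CPM in tdTom- libraries (log2 fold change 0.01 ± 0.14 SE). Reck, the partner of GPR124 in sensing Wnt7, had 41.1, 40.8 and 34.8 CPM in tdTom+ libraries against 62.4, 56.1 and 51.6 CPM in tdTom- libraries. It was lower in each tdTom+ library than in any tdTom- library (log2 fold change -0.54 ± 0.14 SE, edgeR adjusted p = 0.111, DESeq2 adjusted p = 0.0379).

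In the R-spondin axis, which raises Frizzled levels at the cell surface by blocking the ubiquitin ligases ZNRF3 and RNF43, 0 of the 4 tested genes passed edgeR and 1 had an unadjusted p under 0.05; DESeq2 called 1, Rspo3. Rspo3, a secreted ligand of this axis, had 3.94, 4.21 and 2.71 CPM in tdTom+ libraries against 9.69, 9.81 and 9.39 CPM in tdTom- libraries, without overlap (log2 fold change -1.41 ± 0.35 SE, edgeR adjusted p = 0.0941, DESeq2 adjusted p = 0.0228). Lgr4, an R-spondin receptor, had 3.85, 17.2 and 7.66 CPM in tdTom+ libraries against 9.30, 19.5 and 11.5 CPM in tdTom- libraries, overlapping between fractions. Znrf3 had 10.2, 13.2 and 15.8 CPM in tdTom+ libraries against 11.2, 12.005 and 10.6 CPM in tdTom- libraries, and overlapped as well. Lgr5, a related receptor and stem cell marker, had a log2 fold change of -0.81 ± 1.09 SE, and Rspo1 and Rnf43 were too low to test.

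Of the 7 secreted inhibitors tested, Sfrp2 and Dkk3 fell in tdTom+ cells, 0 rose and 5 did not pass. All 7 log2 fold changes were negative, with a median of -1.08, but that of Frzb was 0.28 without tdTom+ replicate 1 and 0.22 without tdTom- replicate 1. Sfrp2, which binds Wnts outside the cell, had 8.50, 3.02 and 6.26 CPM in tdTom+ libraries against 39.5, 13.4 and 23.8 CPM in tdTom- libraries. The level was 4.31-fold lower without overlap (log2 fold change -2.11 ± 0.44 SE, edgeR adjusted p = 0.0436), and 16.1% of its exon length is shared with another annotated gene. Dkk3, a divergent Dickkopf protein, had 4.99, 4.66 and 9.06 CPM in tdTom+ libraries against 23.7, 14.0 and 19.6 CPM in tdTom- libraries. It was 3.06-fold lower, also without overlap (log2 fold change -1.61 ± 0.34 SE, edgeR adjusted p = 0.0419). Dkk2, which binds LRP6, had 14.1, 9.88 and 6.44 CPM in tdTom+ libraries against 32.4, 19.3 and 20.3 CPM in tdTom- libraries (edgeR adjusted p = 0.105, DESeq2 adjusted p = 0.0128). Sfrp1, a relative of Sfrp2, had 10.5, 10.7 and 16.6 CPM in tdTom+ libraries against 26.0, 18.5 and 22.0 CPM in tdTom- libraries (edgeR adjusted p = 0.205). Dkk2 and Sfrp1 did not overlap between fractions, and the log2 fold changes of Frzb, Wif1 and Dkk1 were -0.12, -0.83 and -1.08.

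The mesenchymal and mural marker list, of which 0 of 14 tested genes passed edgeR and all 14 had negative log2 fold changes, summed to 287, 186 and 723 CPM in tdTom+ libraries and 1269, 535 and 729 CPM in tdTom- libraries. The fractions overlapped in this sum. None of the markers was at 0 in all libraries of a fraction; their part in the inhibitor results was not tested. Leaving out tdTom- replicate 1 or 3 gave edgeR adjusted p-values of 0.241 and 0.153 for Sfrp2 and 0.241 and 0.173 for Dkk3, and limma-voom gave 0.114 for Sfrp2 and 0.0590 for Dkk3. Sfrp2 was lost too without tdTom+ replicates 1, 2 and 3, at 0.0688, 0.0912 and 0.0813, and Dkk3 without tdTom+ replicates 1 and 2, at 0.121 and 0.0972, and without tdTom- replicate 2, at 0.0770.

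**Figure D3:**
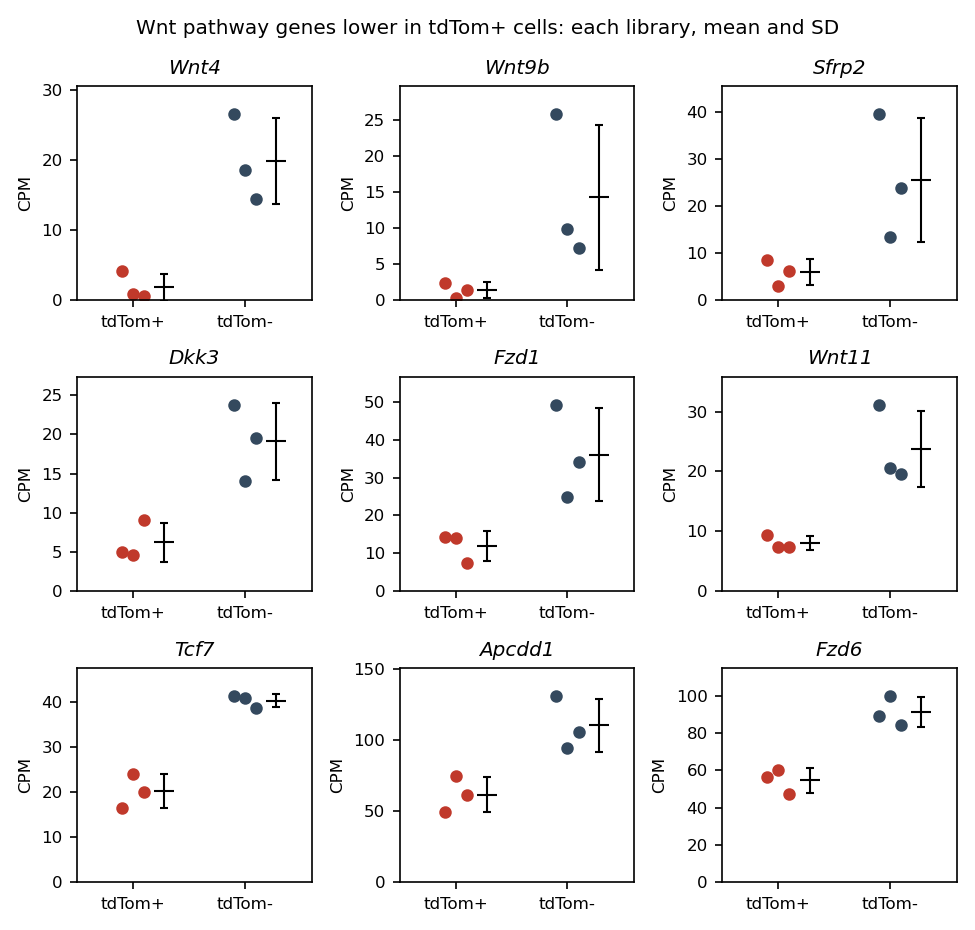
CPM for the 9 genes that fell, tdTom+ left of tdTom- cells, each point 1 library, with the mean and SD beside the points (n = 3 each). In every one of the 9 genes the highest tdTom+ point is below the lowest tdTom- point. These points are 4.12 against 14.4 CPM for Wnt4, which has the largest fold change of the 9. They are 60.4 against 84.5 CPM for Fzd6, which has the smallest fold change, and 74.4 against 94.3 CPM for Apcdd1.

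Of the 5 nuclear effectors Tcf7 fell and 0 rose, and the log2 fold change of Ctnnb1 was smaller than its standard error. Ctnnb1 had 1420, 1371 and 1302 CPM in tdTom+ libraries against 1324, 1430 and 1322 CPM in tdTom- libraries. It averaged 1364 ± 59.5 CPM in tdTom+ cells and 1359 ± 61.9 CPM in tdTom- cells (SD, n = 3 each), a log2 fold change of 0.01 ± 0.06 SE. Tcf7, a DNA-binding partner of beta-catenin that Wnt signals also induce, had 16.6, 24.1 and 19.98 CPM in tdTom+ libraries against 41.3, 40.7 and 38.6 CPM in tdTom- libraries. The fractions did not overlap, and the level was 1.99-fold lower (log2 fold change -0.99 ± 0.18 SE, edgeR adjusted p = 0.0236). Lef1, a related partner and target, had 39.2, 38.2 and 50.04 CPM in tdTom+ libraries against 60.2, 53.9 and 70.6 CPM in tdTom- libraries, also without overlap (log2 fold change -0.54 ± 0.16 SE, edgeR adjusted p = 0.172). Tcf7l1, often a repressor of Wnt targets, had 83.1, 96.7 and 89.3 CPM in tdTom+ libraries against 92.6, 86.7 and 74.2 CPM in tdTom- libraries, and Tcf7l2 had a log2 fold change of -0.01 ± 0.11 SE. Tcf7l1 overlapped between fractions.

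Among the destruction complex and feedback genes Apcdd1 fell, 1 of 6. All 6 had negative log2 fold changes, but Axin1 was at 0.05 without tdTom+ replicate 2 and Notum at 0.17 without tdTom+ replicate 3. Apcdd1, a membrane inhibitor that Wnt signals induce in brain vessels, had 49.6, 74.4 and 61.1 CPM in tdTom+ libraries against 131, 94.3 and 106 CPM in tdTom- libraries. It was 1.79-fold lower and the fractions did not overlap (log2 fold change -0.84 ± 0.17 SE, edgeR adjusted p = 0.0348). Nkd1, an induced inhibitor of Dishevelled, had 33.3, 48.1 and 51.3 CPM in tdTom+ libraries against 77.7, 69.8 and 76.7 CPM in tdTom- libraries. The fractions did not overlap, and it just missed the threshold (log2 fold change -0.76 ± 0.17 SE, edgeR adjusted p = 0.0528). It passed with DESeq2 (adjusted p = 0.0017), with limma-voom (0.0469), and in edgeR without the low-count filter (0.0232), with a stricter one (0.0481) and without tdTom+ replicate 3 (0.0375). Axin2, the most widely used feedback target, was low, with 3.50, 2.47 and 1.68 CPM in tdTom+ libraries against 3.39, 3.97 and 4.25 CPM in tdTom- libraries, overlapping (log2 fold change -0.60 ± 0.55 SE, edgeR adjusted p = 0.786). Tnfrsf19, another target, had 42.0, 51.8 and 44.8 CPM in tdTom+ libraries against 50.6, 59.9 and 50.5 CPM in tdTom- libraries, which overlapped (edgeR adjusted p = 0.676), and Notum, a secreted enzyme that inactivates Wnts, had a log2 fold change of -0.35 ± 0.94 SE. Axin1, the scaffold of the complex, had 75.9, 57.2 and 74.5 CPM in tdTom+ libraries against 73.6, 69.8 and 74.8 CPM in tdTom- libraries, overlapping.

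Of the 15 tested brain endothelial markers, Lsr, Slc2a1, Slc7a5, Mfsd2a, Itm2a and Foxf2 fell as well and 9 did not pass. The 16 listed summed to 2197 to 2588 CPM in tdTom+ cells and 3029 to 3274 CPM in tdTom- cells, and their part in the Tcf7, Apcdd1 and Fzd6 results was not tested. Without tdTom+ replicate 1 or tdTom- replicates 1, 2 and 3, the edgeR adjusted p was 0.0668, 0.134, 0.112 and 0.102 for Tcf7 and 0.0963, 0.191, 0.0645 and 0.126 for Apcdd1, which was also lost without tdTom+ replicate 3, at 0.0742.

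**Figure D4:**
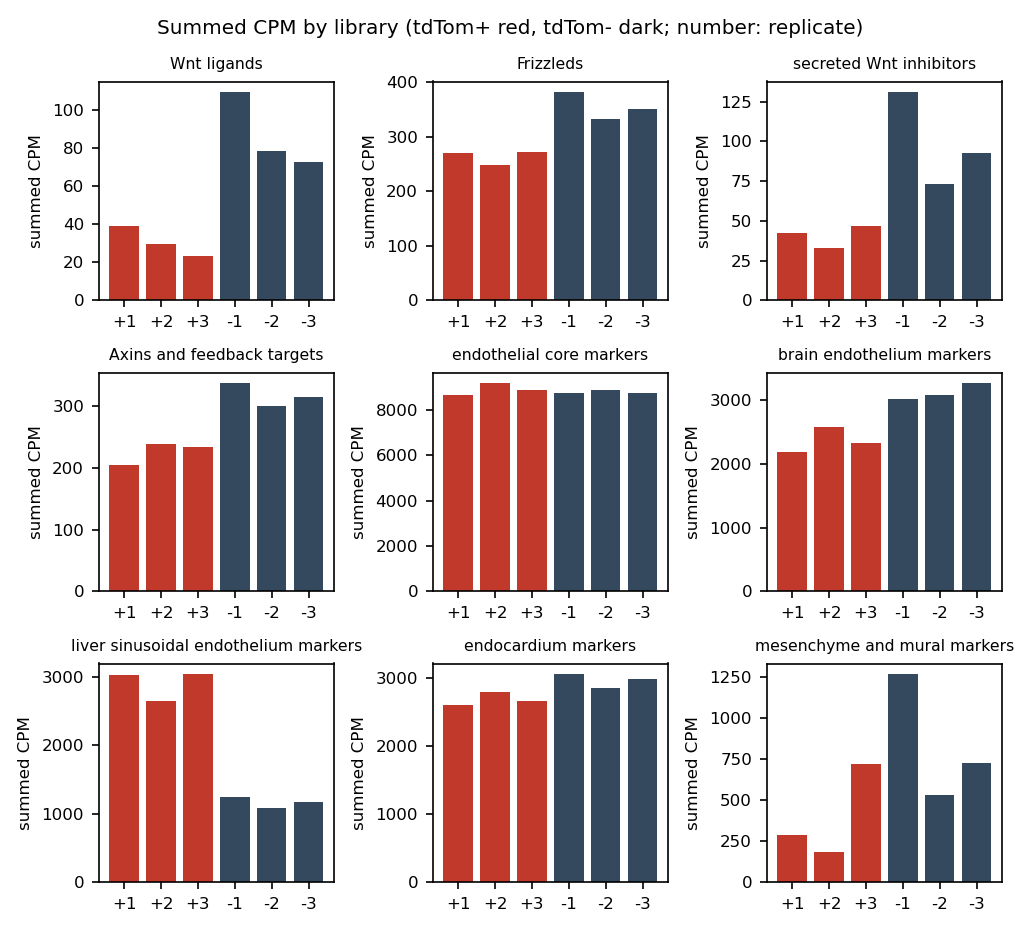
Summed CPM of 4 Wnt gene classes and 5 marker lists, each bar 1 library, tdTom+ libraries left of tdTom- libraries, from 0. The ligand sums of 23.5 to 39.1 CPM in tdTom+ cells lie below the 72.7 to 109 CPM of tdTom- cells, while the core endothelial sums overlap.

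Other genes of the pathway passed the same test at a share near that of all genes. Of 96 further Wnt genes 82 were tested; 1, Foxf2, fell and 0 rose in tdTom+ cells, 1.22% against 1.58% of all tested genes in either direction. At an unadjusted p under 0.05, 11 were lower and 5 higher, against 5.94% and 4.76% of all tested genes, and their median log2 fold change was -0.09. Foxf2, a forkhead factor of brain endothelium and mesenchyme that was also on the brain endothelial list, had 20.7, 21.5 and 20.9 CPM in tdTom+ libraries against 42.5, 30.4 and 44.8 CPM in tdTom- libraries (log2 fold change -0.90 ± 0.19 SE, edgeR adjusted p = 0.0419). Its call was lost with limma-voom, at 0.0738, and without every library but tdTom- replicate 2, at 0.0752 to 0.233. None of the 11 other ligands, receptors and surface proteins, the 4 other secreted inhibitors, the 7 Wnt secretion genes, the 22 cytoplasmic transducers, the 17 nuclear partners or the 11 planar cell polarity genes passed edgeR. The list of other Wnt-induced genes, which held Foxf2, had 10 tested, and 9 of these had negative log2 fold changes (median -0.56). By edgeR at an unadjusted p under 0.05, 3 were lower and 1 was higher, against 5.94% and 4.76% of all tested genes. In 4 every tdTom+ library lay below every tdTom- library, against 9.35% of all tested genes, and in 1 above, against 7.88%. Gpr124, the brain-vessel partner of RECK, had 60.0, 76.2 and 68.4 CPM in tdTom+ libraries against 87.8, 57.6 and 78.5 CPM in tdTom- libraries, overlapping (log2 fold change -0.13 ± 0.17 SE, edgeR adjusted p = 0.874).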

How the data were processed

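RNA of sorted endothelial cells was amplified by a SMART-seq kit and made into libraries with Nextera XT, per the labels' protocols; these kits do not mark strand. Per the submitters' processing notes, reads were handled with featureCounts 1.4.6, STAR 2.5.2b, Trimmomatic 0.36.4, DESeq2 and Picard 2.7.1.1 on mm10; no source used here gives the annotation. The authors deposited raw read counts per gene, which were used here, beside log2 fold changes and p-values of their own comparison, as deposited by the authors, of which no value is printed; 6 normalized per-sample columns were not used.

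Counts were fitted in edgeR 4.0.16 (R 4.3.3) with TMM scaling, filterByExpr at a minimum count of 10 and a robust quasi-likelihood F-test of tdTom+ against tdTom- cells, with p-values adjusted by Benjamini-Hochberg over all 13142 genes (threshold 0.05). Standard errors are the size of the log2 change over the root of F. CPM used TMM-scaled totals, and CPM per kb the exon length of GENCODE vM21 (GRCm38), so levels per length depend on that annotation. In 13 of the genes some exon sequence overlaps another annotated gene, where reads of the 2 cannot be told apart, such as Sfrp2, Wnt11, Fzd6, Lef1, Rspo3 and Ctnnb1. Alternatives were RLE scaling, no or a stricter low-count filter, DESeq2 1.42.0, limma-voom (limma 3.58.1), a replicate block and leaving out each library.

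Values per library are given for genes that passed in edgeR, with the replicate block or in DESeq2, for those with an unadjusted p under 0.05 and for the 2 of each class with the highest mean CPM; genes of at most 3 counts in every library are named as such. The members and lists were chosen with earlier results of these data known, and the promoters to print after their values were seen.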

Additional observations from a re-analysis of the deposited data

How the results depend on the processing

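For the 20 genes with an unadjusted p under 0.05, 185 of 240 results under the alternatives kept direction and side of the threshold, 43 lost their call, 12 gained one, and 0 changed sign; 39 of the 43 lost calls came from leaving out 1 library. Of the other 24 tested genes, none of which passed, 13 changed sign under some alternative: 12 without 1 library, and Wnt6, at -0.14 with limma-voom. The count of 9 genes lower in tdTom+ cells was 9 with RLE scaling and 10 with no or a stricter filter, and held the same 9 genes in each. It was 14 with DESeq2, which called 502 of all genes against 208 with edgeR, and 6 with limma-voom, of which 5 were shared. Leaving out 1 library gave 0 to 7 genes of the set and 62 to 189 of all genes. Of the other pathway genes, DESeq2 called 5 of 87, 5.75% against 3.32% of all genes it tested. Limma-voom called 0 of 82, and had 17 at an unadjusted p under 0.05, beside 1550 of all 13142 genes. Leaving out 1 library gave 0 to 3 of the other pathway genes.

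A replicate block left 12 genes of the set lower, among them the same 9 and also Dkk2, Fzd2 and Nkd1. With the block, 295 of all tested genes passed, 2.24%, and 4 of the 82 other pathway genes, 4.88%. Deviations from the fraction means of same-numbered libraries correlated at 0.105, 0.0892 and 0.161, and each library correlated best with its own number, a hint from the data and not from the design. The same embryos gave both fractions, but no label says what a number marks, so the main fit left out the block. Any embryo shared by same-numbered libraries is therefore not modelled in the main fit.

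With 3 libraries a fraction, genes that did not reach the low-count filter, 11 of the set, were not tested.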
